A study of Mus musculus with 40 samples.

Results

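The cell cycle and replication machinery was read in mouse duodenum by 67 probes of the 3045 in the table, for 60 of 2756 genes. Members were the probes whose gene symbol named a minichromosome maintenance (MCM) protein, a CDC or CDK gene other than Cdc42, a cyclin A, B, D or E, an E2F factor, a polo-like or aurora kinase, a BUB, CENP or kinesin (KIF) gene, or Mki67 or Top2a. The rule reads gene symbols alone. The symbol rule also takes in genes outside the cell cycle proper. Among them are the transcription kinase Cdk19, Cdk5r1, an activator of the neuronal kinase Cdk5, and the transport kinesins Kif5a and Kif5c. Cdk7 acts both in the cell cycle and in transcription.

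Probe counts came from 40 TempO-Seq libraries, an assay in which paired oligonucleotides are joined on their target RNA and then counted by sequencing. All mice were male wildtype B6C3F1 animals exposed for 28 days, and their age is not stated. The 5 control libraries were compared with 7 libraries each of Cr(VI) at 180 ppm in drinking water, captan at 6000 and 12000 ppm in the diet, and folpet at 6000 and 16000 ppm in the diet. Hexavalent chromium is an oxidising metal ion and captan and folpet are fungicides. Tissue was scraped from slide-mounted sections of formalin-fixed, paraffin-embedded duodenum, so each library mixes epithelium with whatever else lay on the section. The labels do not tie libraries to individual mice, and p-values therefore measure the spread between libraries, which may in part be technical.

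Cells divide in the duodenum mainly in the crypts, where stem and transit-amplifying cells supply the villi. D-type cyclins with Cdk4 and Cdk6 release E2F factors in G1, E2F factors switch on genes of DNA synthesis such as the MCM helicase, and cyclins A and B with Cdk1 then drive cells into mitosis. Polo-like and aurora kinases, centromere proteins, kinesins and the spindle checkpoint act on the mitotic spindle. Many genes of the late cell cycle carry a cell cycle genes homology region (CHR) and CCAAT boxes in their promoters, and many genes of the G1 to S transition carry E2F sites.

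Promoter sequences of RefSeq (build GRCm38.p6) were found for 49 of the 60 member genes, as 54 windows of 250 bases before a transcription start. CCAAT, read on both strands, was present in 77.8% of the member windows and in 33.8% of all 32851 RefSeq windows. Those windows cover 27025 genes, whether or not the assay read them. The CHR letters TTTGAA were present in 27.8% against 16.0%. One of the E2F letters TTTCCCGC, TTTCGCGC, TTTGCCGC or TTTGGCGC was present in 16.7% against 1.86%. A CHR together with a CCAAT box was found in 25.9% of member windows and in 5.55% of all windows. Of the 8 windows of 6 genes called lower after Cr(VI), 6 held CCAAT, 1 the CHR letters (12.5%) and 1 an E2F match. The 6 sequences are the last 170 bases before the start, 5′ to 3′ on the gene's strand, for 4 genes with a lower level after Cr(VI) (Mcm7, Plk1, Cenpf and Cdk4) and for a pair of late cell cycle genes that did not pass the test (Top2a and Cdc20). Capitals mark matches to these letters on either strand. The Mcm7 window shown holds an E2F match and 2 CCAAT boxes, while another RefSeq window of Mcm7, not shown, holds 1 CCAAT box and no E2F match in its last 170 bases. Top2a and Cdc20 each hold a CHR with CCAAT boxes near the start, and the Cdk4 window holds none of these letters. E2f2, also called lower after Cr(VI), is not shown. Of its windows, 1 holds the CHR letters with 3 CCAAT boxes and the other 1 CCAAT box alone. The sequences shown are therefore no comparison of genes that passed with genes that did not.
Mcm7 (chr5:138171884-138172053, minus strand): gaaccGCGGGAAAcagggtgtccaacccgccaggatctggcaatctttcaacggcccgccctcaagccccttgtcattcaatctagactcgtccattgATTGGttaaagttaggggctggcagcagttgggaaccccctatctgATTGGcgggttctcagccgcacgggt
Plk1 (chr7:122159265-122159434, plus strand): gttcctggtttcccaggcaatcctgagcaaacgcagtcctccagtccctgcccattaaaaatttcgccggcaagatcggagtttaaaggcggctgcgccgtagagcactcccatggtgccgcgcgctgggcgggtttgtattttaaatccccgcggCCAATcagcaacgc
Cenpf (chr1:189688087-189688256, minus strand): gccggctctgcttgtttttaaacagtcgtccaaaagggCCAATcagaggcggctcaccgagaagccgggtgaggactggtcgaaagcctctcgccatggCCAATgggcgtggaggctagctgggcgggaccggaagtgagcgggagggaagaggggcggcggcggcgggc
Cdk4 (chr10:127063365-127063534, plus strand): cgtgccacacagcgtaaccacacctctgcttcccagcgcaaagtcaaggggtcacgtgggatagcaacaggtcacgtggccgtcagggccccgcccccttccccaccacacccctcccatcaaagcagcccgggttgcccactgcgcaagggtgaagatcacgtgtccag
Top2a (chr11:99024190-99024359, minus strand): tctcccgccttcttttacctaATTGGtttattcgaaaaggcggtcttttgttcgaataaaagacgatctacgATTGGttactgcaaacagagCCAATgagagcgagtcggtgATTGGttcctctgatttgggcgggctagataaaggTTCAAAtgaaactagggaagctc
Cdc20 (chr4:118437344-118437513, minus strand): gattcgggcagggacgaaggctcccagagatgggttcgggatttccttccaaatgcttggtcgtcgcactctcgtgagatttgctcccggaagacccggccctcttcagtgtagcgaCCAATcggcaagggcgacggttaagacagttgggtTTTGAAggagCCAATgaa

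Of the 67 probes, 64 passed the filter on low counts and were tested among 2541 probes. The others, for the centromere genes Cenpl and Cenpq and the kinesin Kif26b, were at 0 in 39, 39 and 35 of the 40 libraries. Levels are given as CPM, the share of a library's counts on a common scale after adjustment by TMM, a factor that evens out libraries in which a few genes take most counts, and were compared between libraries for each probe. A member is called changed at an adjusted p under 0.05 in edgeR's quasi-likelihood test with Benjamini-Hochberg adjustment over all 2541 probes, and every adjusted p in the text comes from that fit unless DESeq2 is named. The 5 comparisons with control share the same 5 control libraries.

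The libraries held 1763440 to 7904819 counts. Genes of the pancreatic acinar cell, which makes digestive enzymes, took a mean of 46.9% of counts in controls, 51.8% after Cr(VI) and 10.5% to 25.1% in the fungicide groups, and they exceeded 50% in 7 libraries, of which 2 were controls, 4 Cr(VI) and 1 captan at 12000 ppm. Control replicate 5 stood apart, with 75.1% acinar counts, 1460 probes above 0 and 31 tested members at 0, against 8 to 21 members at 0 in the other controls. The proliferation markers were present in the tissue: Top2a, Ccna2, Mcm7 and Cenpf were above 0 in every library and Mki67 in all but control replicate 5. The stem cell markers Lgr5 and Olfm4 are not among the probes, and the crypt list was read through 5 genes (Cd44, Ephb2, Hes1, Myc and Notch1).

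Cr(VI) at 180 ppm was followed by lower levels of some cell cycle genes, with roles from G1 to mitosis. Called lower were 8 of 64 members (12.5%), with 5.94% of all tested probes called, 2.95% higher and 2.99% lower, and no member was called higher. The count was 1 when the fit held only the 2 groups compared, 1 with library totals alone and 0 without the 7 libraries over 50% acinar counts. The share of all probes called in those fits is not given here. These counts therefore do not show whether members lost calls more than other probes. The 8 were the replicative helicase subunit Mcm7, the G1 genes Ccnd2, Cdk4 and E2f2, the S to M cyclin Ccna2, the mitotic kinase Plk1 and the centromere proteins Cenpf and Cenpi. The median log2 fold change over the 64 members was -0.58, against -0.03 over all tested probes, and 52 members (81.25%) had a negative value, against 51.5% of all probes. Summed over the 67 probes, the members' level was 3085, 3121, 3212, 3215 and 4153 CPM in the controls and 1680 to 2512 CPM in the Cr(VI) libraries, without overlap. This lack of overlap was not particular to Cr(VI). The sums were 2123 to 3019 CPM with captan at 6000 ppm, also below every control. With folpet they were 2549 to 2941 CPM at 6000 ppm and 2520 to 2868 CPM at 16000 ppm, again below every control. With captan at 12000 ppm they were 2365 to 3203 CPM and overlapped the controls. Untransformed by the scaling, the members took 0.178% to 0.465% of all counts in controls and 0.0522% to 0.410% after Cr(VI), and these shares overlap. In bulk tissue, fewer cells of a type and less RNA per cell cannot be told apart.

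**Figure D1:**
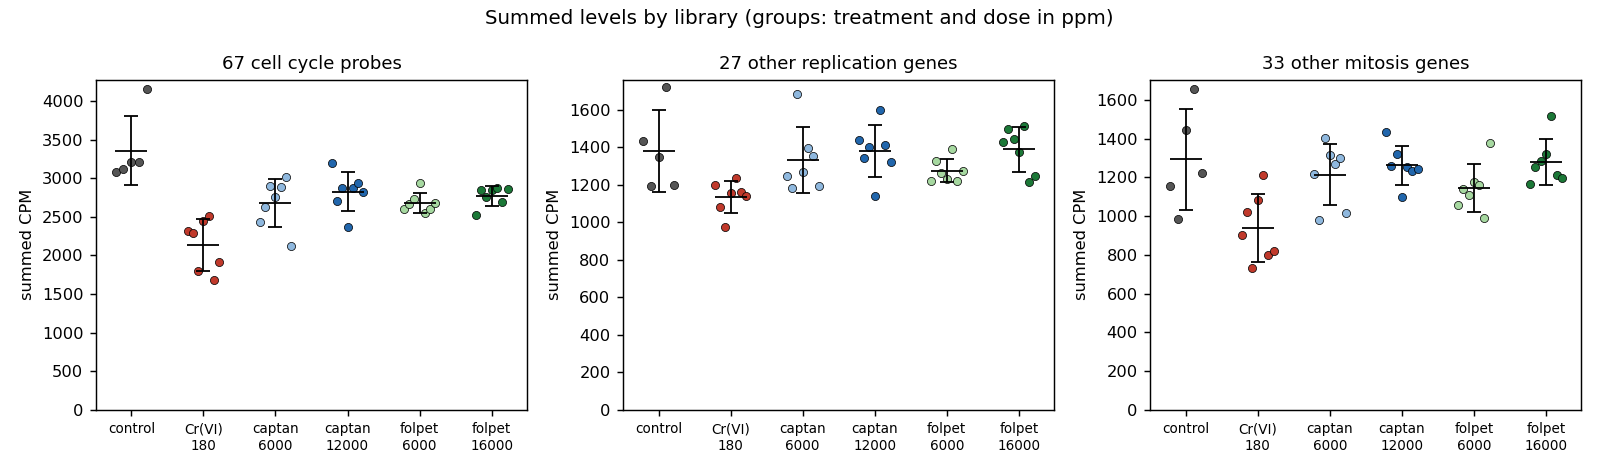
Summed CPM (y axis, linear) in each library by group (x axis) for the 67 cell cycle probes, for 27 other replication genes and for 33 other mitosis genes, with the mean and SD as a bar. The 7 Cr(VI) libraries lie between 1680 and 2512 CPM for the cell cycle probes, below the controls at 3085 to 4153 CPM. The cell cycle sums with captan at 6000 ppm and with folpet at both doses also lie below every control, while captan at 12000 ppm overlaps. For Cr(VI) the other 2 sums overlap with control.

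In the helicase and origin group, Mcm7, a subunit of the ring that unwinds DNA at the fork, was at 161, 145, 156, 125 and 384 CPM in the controls. After Cr(VI) its level was 34.7 CPM in the lowest library, 94.4 CPM at the median and 123 CPM in the highest. The highest Cr(VI) library lay just under the lowest control, and control replicate 5 lay well above the other controls. Mcm7 fell by 1.24 on the log2 scale (SE 0.27, adjusted p = 0.00224), and by 0.84 with the call kept when control replicate 5 was left out. Of the 12 probes of this group, 11 had negative values after Cr(VI), with a median of -0.99, and Mcm7 alone passed. Cdc45, which joins the MCM ring into the active helicase, had a log2 difference of -1.87 (SE 0.99, adjusted p = 0.285) at a median of 11.6 CPM in controls and 3.40 CPM after Cr(VI), and its second probe had -1.79 (SE 1.58, adjusted p = 0.628). Mcm2 spanned 44.8 to 74.0 CPM in controls and 0 to 71.7 CPM after Cr(VI), so that the groups overlapped across the control range.

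In the G1 group, 3 of 15 probes were called lower after Cr(VI) and 14 had negative values, with a median of -0.48. This shift was not particular to Cr(VI). With captan at 6000 and 12000 ppm, 14 and 12 of the 15 were negative, with medians of -0.68 and -0.51. With folpet at 6000 and 16000 ppm, 13 were negative at each dose, with medians of -0.58 and -0.48. Ccnd2, cyclin D2, was at 209, 205, 266, 253 and 409 CPM in the controls and at 67 to 147 CPM after Cr(VI), with a median of 113 CPM. Every Cr(VI) library lay below every control. Ccnd2 fell by 1.25 (SE 0.23, adjusted p = 0.000467), and this was the only one of the 8 calls kept when the libraries were scaled by their totals alone. Its second probe, at 27 to 71.5 CPM in controls and 2.61 to 40.8 CPM after Cr(VI), gave -1.22 (SE 0.44, adjusted p = 0.0842) and passed with DESeq2 (adjusted p = 0.0383).

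Cdk4, the kinase partner of the D cyclins, was read by the probe with the highest mean CPM of all members, 298 CPM over the 40 libraries. It was at 499, 387, 360, 274 and 612 CPM in controls and at 167 to 320 CPM, with a median of 235 CPM, after Cr(VI). Control replicate 4 lay inside the Cr(VI) range and the other 4 controls above it. Cdk4 fell by 0.81 (SE 0.19, adjusted p = 0.00381), and its second probe gave -0.48 (SE 0.22, adjusted p = 0.205). The 2 probes of Cdk4 therefore differ in call.

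E2f2, an activating E2F factor, was at 34.5, 137, 58.7, 51.0 and 42.3 CPM in controls and at 4.21 to 34.9 CPM, with a median of 28.3 CPM, after Cr(VI). The highest Cr(VI) library just passed the lowest control, and control replicate 2 was far above the others. E2f2 fell by 1.45 (SE 0.44, adjusted p = 0.039), and without control replicate 2 the difference was -0.95 (adjusted p = 0.227). The call was also lost without control replicate 3 or Cr(VI) replicate 5, 6 or 7. Cyclin D1 and cyclin D3 did not pass: Ccnd1 spanned 46.6 to 125 CPM in controls and 34.0 to 130 CPM after Cr(VI), and Ccnd3 spanned 36.0 to 73.9 and 22.9 to 60.7 CPM.

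**Figure D2:**
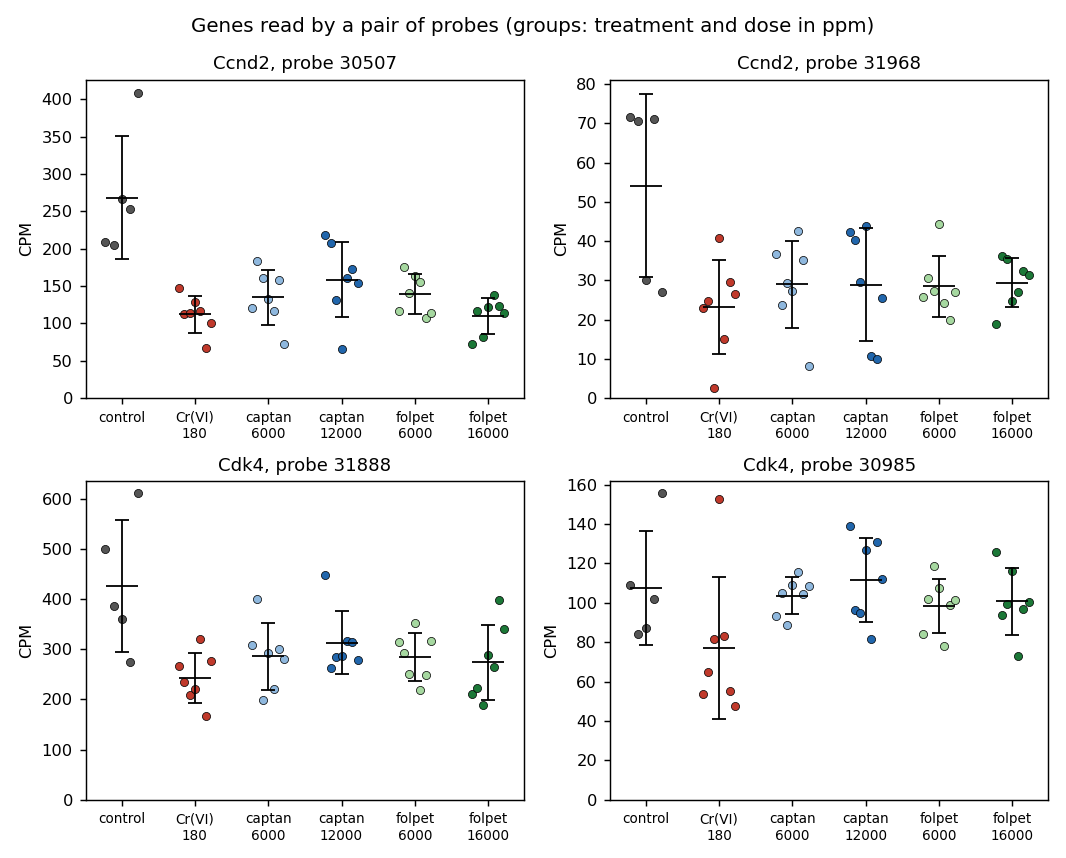
CPM (y axes, linear) of the 2 probes of Ccnd2 and the 2 probes of Cdk4 in each library by group, with the mean and SD as a bar. For Ccnd2 the first probe lies at 205 to 409 CPM in controls and at 67 to 147 CPM after Cr(VI), and the second is lower in CPM with the same direction; for Cdk4 the second probe is spread from 47.4 to 153 CPM after Cr(VI), across the control range of 84.4 to 156 CPM.

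Among the S to M genes, Ccna2, cyclin A2, which acts with Cdk2 in S phase and with Cdk1 on the way into mitosis, was at 191, 236, 293, 264 and 441 CPM in controls. Its level after Cr(VI) ran from 75.2 through a median of 162 to 192 CPM. The lowest control lay inside the top of the Cr(VI) range, and Cr(VI) replicate 6 lay far below the other Cr(VI) libraries. Ccna2 fell by 0.84 (SE 0.21, adjusted p = 0.00648), and by 0.63 with an adjusted p of 0.0587 when control replicate 5 was left out. Its second probe was at 0 in 30 of 40 libraries and gives no usable comparison. Cdc20, an activator of the anaphase-promoting complex, was at 47.7 to 251 CPM in controls and 53.7 to 183 CPM after Cr(VI) and did not pass (adjusted p = 0.11). Cdk1, the mitotic kinase itself, was at 0 in 8 libraries, with medians of 0 CPM in controls and 17.0 CPM after Cr(VI), and did not pass. Ccnb1, cyclin B1, had -0.46 (SE 0.66, adjusted p = 0.806) at means of 22.2 CPM in controls and 16.2 CPM after Cr(VI). Its second probe, with fewer counts, had -2.24 (SE 1.24, adjusted p = 0.318) at 0 to 52.2 CPM in controls and 0 to 12.6 CPM after Cr(VI). Cdc25c, a phosphatase that activates Cdk1, had 2.02 (SE 2.28) at 0 in 28 libraries. Of the 10 S to M probes, 8 had negative values after Cr(VI), with a median of -0.60.

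Plk1, the polo-like kinase of mitotic entry and spindle assembly, was at 59.7, 44.6, 102, 84.9 and 127 CPM in controls. After Cr(VI) it ran from 21.7 to 66.8 CPM with a median of 31.8 CPM. Cr(VI) replicates 1 and 5 lay inside the control range and the other 5 libraries below it. Plk1 fell by 1.14 (SE 0.30, adjusted p = 0.0116). Without control replicate 5 the difference was -0.94 (adjusted p = 0.0517), and without the 7 libraries over 50% acinar counts it was -0.47 (adjusted p = 0.621). Of the 7 mitotic kinase and checkpoint probes, only 4 had negative values after Cr(VI), with a median of -0.50. Apart from Plk1 none passed. Bub1, a checkpoint kinase at the kinetochore, had -1.06 (SE 0.65, adjusted p = 0.384) at medians of 23.1 CPM in controls and 14.0 CPM after Cr(VI).

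Cenpf, a kinetochore protein that accumulates in G2 and mitosis, was at 38.2, 43.8, 18.3, 15.9 and 71.2 CPM in controls and at 4.67 to 17.9 CPM after Cr(VI), with a median of 11.2 CPM. Cr(VI) replicates 3 and 5 passed the lowest control, and the rest lay below. Cenpf fell by 1.73 (SE 0.45, adjusted p = 0.0116), and by 1.37 with an adjusted p of 0.0624 without control replicate 5. The call for Cenpi, a constitutive centromere protein, rests on a single control: control replicate 2 held 20.3 CPM, and the other 4 controls and all 7 Cr(VI) libraries were at 0. No fold is given for it, and without that library the compared groups are both at 0. The call was also lost when any 1 of the 7 Cr(VI) libraries was left out. Cenpe, the kinetochore motor, was at 53.1 to 79.7 CPM in controls and 29.6 to 108 CPM after Cr(VI) and did not pass. Of the 5 centromere and kinetochore probes, only 3 had negative values after Cr(VI), with a median of -0.68.

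None of 10 kinesin probes passed after Cr(VI), and 8 had negative values with a median of -0.88. The chromosome motor Kif4 had -3.78 (SE 1.88, adjusted p = 0.246) at medians of 11.1 CPM in controls and 0 CPM after Cr(VI), where its highest library held 6.23 CPM. The neuronal transport motor Kif5c had -2.26 (SE 1.35, adjusted p = 0.373). Both probes are low, with 18 and 9 libraries at 0. The classical proliferation markers did not pass either: Mki67, the Ki-67 antigen, was at 26.8, 51.7, 59.3, 24.9 and 0 CPM in controls and at 6.08 to 51.3 CPM after Cr(VI), with a difference of -0.57 (SE 0.56, adjusted p = 0.684). Top2a, the topoisomerase that untangles replicated chromosomes, was at 166, 183, 123, 265 and 137 CPM in controls and at 62.5 to 166 CPM after Cr(VI), with a difference of -0.62 (SE 0.22, adjusted p = 0.0715). With DESeq2 Top2a passed, at -0.61 and an adjusted p of 0.0455.

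**Figure D3:**
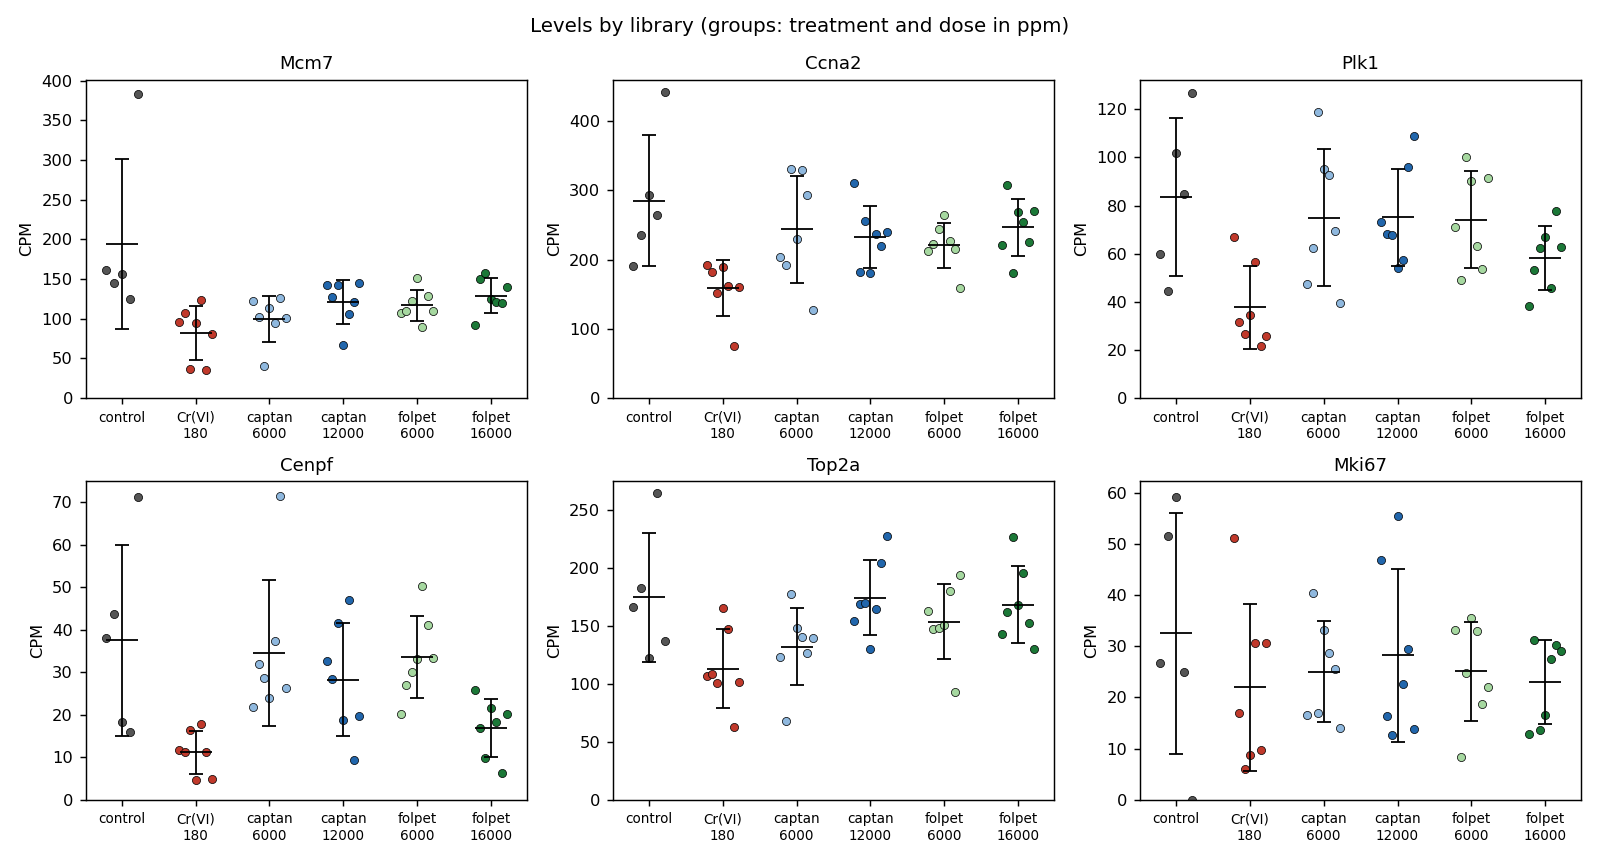
CPM (y axes, linear) in each library by group for Mcm7, Ccna2, Plk1, Cenpf, Top2a and Mki67, with the mean and SD as a bar. Mcm7 in the Cr(VI) libraries stays at or under 123 CPM against 125 CPM or more in controls, while the Mki67 values of the Cr(VI) group, 6.08 to 51.3 CPM, lie within the control spread of 0 to 59.3 CPM.

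The Cr(VI) calls are sensitive to which libraries enter. Without the 7 libraries over 50% acinar counts, which leaves 3 of each group, none of the 64 members passed and the members' median was -0.49, against -0.02 over all probes. The differences of the called members were then -1.77 for E2f2, -1.27 for Cenpf, -1.01 for Ccnd2, -0.84 for Mcm7, -0.72 for Ccna2, -0.70 for Cdk4 and -0.47 for Plk1, with adjusted p from 0.082 for Ccnd2 to 0.621 for Plk1. With the acinar share as a covariate, 7 of the 8 calls were kept, all but Cenpi. Levels of genes listed as markers of other cell types differed after Cr(VI) as well. The summed level of 14 lymphoid genes, most of it from Cd74, was 8874 to 27661 CPM in controls and 3071 to 5990 CPM after Cr(VI). Of the 13 lymphoid probes tested 3 were called lower, and the B cell marker Ms4a1 was at 0 in every library of both groups. The sum of 6 smooth muscle genes was 1665 to 3126 CPM in controls and 1346 to 1934 CPM after Cr(VI). The sum of 6 enterocyte genes was 18159 to 62629 CPM in controls and 64463 to 84474 CPM after Cr(VI). Of these genes 4 were called higher, Apoa1, Creb3l3, Fabp1 and Klf4. Of the 5 crypt genes none passed (588 to 962 CPM in controls, 469 to 830 CPM after Cr(VI)). The lists were chosen with earlier results of these data known, so these counts give no independent evidence about the cell types. The part of these cell types in the lower cell cycle levels was not tested.

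Ccnd2 was called lower in all 4 fungicide groups. Against control it fell by 0.99 (SE 0.23, adjusted p = 0.00407) with captan at 6000 ppm, by 0.75 (SE 0.23, adjusted p = 0.0327) with captan at 12000 ppm, by 0.95 (SE 0.23, adjusted p = 0.00474) with folpet at 6000 ppm and by 1.29 (SE 0.23, adjusted p = 5.07e-05) with folpet at 16000 ppm. Its level was 72.0 to 183 CPM (median 132) and 66.2 to 218 CPM (median 161) in the captan groups. In the folpet groups it was 107 to 175 CPM (median 140) and 72.9 to 138 CPM (median 116). The controls began at 205 CPM, so that only the captan 12000 ppm group reached into their range. The second Ccnd2 probe had -0.90, -0.91, -0.93 and -0.88 in the same order, with adjusted p from 0.197 to 0.233, and did not pass in any. For the first probe the captan 12000 ppm call was lost without control replicate 5, where the difference was -0.56, and also without control replicate 3 or captan replicate 3, 4, 5 or 7. The other 3 were kept without that library, and without the 7 libraries over 50% acinar counts the folpet 16000 ppm call alone was kept.

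Levels of genes listed as markers of other cell types differed in the fungicide groups too. All 19 acinar probes had negative values in each of the 4 groups, with medians of -2.04 and -2.21 for captan at 6000 and 12000 ppm and -1.83 and -1.25 for folpet at 6000 and 16000 ppm, although only 1 of them was called, with folpet at 16000 ppm. The smooth muscle genes Acta2 and Flna and the antigen presentation gene Cd74 were called lower in all 4 groups. Between 3 and 5 of the 6 enterocyte genes were called higher, with Apoa1, Creb3l3 and Klf4 among them in all 4 groups. The crypt gene Hes1 was lower with captan at 12000 ppm (-0.66) and folpet at 16000 ppm (-0.67). As the lists were chosen with earlier results known, these counts give no independent evidence about the cell types. The summed smooth muscle level, 1665 to 3126 CPM in controls, was 1155 to 1877 and 1355 to 2352 CPM with captan and 1140 to 1913 and 1351 to 1583 CPM with folpet. The summed lymphoid level, 8874 to 27661 CPM in controls, was 5283 to 13243 and 3771 to 9529 CPM with captan and 3555 to 12783 and 2438 to 6820 CPM with folpet. The part of these cell types in the calls of members was not tested.

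Captan at 6000 ppm had 3 of 64 members called (4.69%), all lower, with 5.16% of all probes called, 3.78% higher and 1.38% lower. Beside Ccnd2 they were Mcm7 and Cenpi. Mcm7 was at 40.3 to 126 CPM with a median of 103 CPM, and only the highest library reached the lowest control, at 125 CPM. It fell by 0.95 (SE 0.27, adjusted p = 0.0229), and without control replicate 5 the difference was -0.55 (adjusted p = 0.253). The Mcm7 call was also lost without captan replicate 3 and without the 7 libraries over 50% acinar counts (-0.61, adjusted p = 0.235). Cenpi was again at 0 in all 7 exposed libraries, against 1 control above 0, and its call was lost without the 7 libraries (adjusted p = 0.0566) and without any 1 of captan replicates 1, 3, 4, 5, 6 and 7. DESeq2 also called Cdk19 (-0.77, adjusted p = 0.0102) and Cdk4 (-0.66, adjusted p = 0.0147) lower, which edgeR did not. The members' median was -0.31, against 0.01 over all probes.

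Captan at 12000 ppm had 2 members called (3.13%), both lower, with 6.18% of all probes called, 4.64% higher and 1.53% lower. Beside Ccnd2 the call was Cdk19, a kinase of the Mediator complex that regulates transcription. Cdk19 was at 131, 96, 189, 133 and 251 CPM in controls and at 67.6 to 139 CPM, with a median of 79.7 CPM. Captan replicate 4 alone lay well inside the control range. Cdk19 fell by 0.87 (SE 0.22, adjusted p = 0.0103), and by 0.66 with an adjusted p of 0.0749 without control replicate 5, so that neither call of this group was kept without that library. Without the 7 libraries over 50% acinar counts Cdk19 had -0.62 (adjusted p = 0.149). The members' median was -0.19, against 0.00 over all probes.

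Folpet at 6000 ppm had 2 members called (3.13%), both lower, with 6.22% of all probes called, 4.6% higher and 1.61% lower. Beside Ccnd2 the call was E2f2, at 6.81 to 33.5 CPM with a median of 27.7 CPM, every library below the lowest control at 34.5 CPM. E2f2 fell by 1.42 (SE 0.44, adjusted p = 0.0398), and the difference was -0.92 (adjusted p = 0.262) without control replicate 2. The call was also lost without control replicate 3 or folpet replicate 2, 4, 5 or 6, and kept without the 7 libraries over 50% acinar counts (-1.64, adjusted p = 0.0275). DESeq2 also called Mcm7 (-0.81, adjusted p = 0.0374) and Cdk4 (-0.66, adjusted p = 0.0135) lower and Plk3 (0.84, adjusted p = 0.043) higher, which edgeR did not. The members' median was -0.20, against 0.00 over all probes.

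Folpet at 16000 ppm had 6 members called (9.38%), 2 higher and 4 lower, with 12.6% of all probes called, 7.91% higher and 4.68% lower. The members called lower were Ccnd2, Cdk19, Cdk4 and Cenpi. Cdk19 was at 66.1 to 102 CPM with a median of 79.3 CPM, and its highest libraries passed the lowest control at 96 CPM. It fell by 0.96 (SE 0.22, adjusted p = 0.00201), a call kept without control replicate 5. The Cdk4 probe with more counts was at 190 to 399 CPM with a median of 265 CPM, overlapping the controls, and fell by 0.64 (SE 0.19, adjusted p = 0.0177). Without control replicate 5 the Cdk4 difference was -0.47 (adjusted p = 0.105), and the call was also lost without control replicate 1 and without the 7 libraries over 50% acinar counts (-0.58, adjusted p = 0.0622). The second Cdk4 probe had -0.09 (SE 0.22, adjusted p = 0.882). Cenpi was at 0 in all 7 libraries, as with Cr(VI) and captan at 6000 ppm, and its call was lost without control replicate 2. In the other exposed groups Cenpi was mostly above 0. It was at 0 in 2 libraries with captan at 12000 ppm (median 3.11 CPM) and in 1 with folpet at 6000 ppm (median 2.60 CPM), against 4 of the 5 controls.

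The members called higher with folpet at 16000 ppm were Plk3 and Cdk7. Plk3, a stress-responsive polo-like kinase, was at 45.1, 57.2, 47.2, 37.1 and 36.0 CPM in controls and at 54.9 to 103 CPM, with a median of 86.3 CPM, with folpet. Only the highest control lay above the lowest folpet library. Plk3 rose by 0.90 (SE 0.31, adjusted p = 0.0448), and the call was lost without control replicate 5 (0.84, adjusted p = 0.0852). It was lost in 9 of the 12 fits that left out 1 library, all but those without control replicate 2 or folpet replicate 2 or 5, and without the 7 libraries over 50% acinar counts (0.76, adjusted p = 0.187). Plk3 also had positive values without passing with Cr(VI) (0.53), captan at 6000 and 12000 ppm (0.68 and 0.71) and folpet at 6000 ppm (0.91, adjusted p = 0.0659). Cdk7, the CDK-activating kinase that is also part of the transcription factor TFIIH, was at 129, 152, 218, 208 and 111 CPM in controls and at 171 to 305 CPM, with a median of 243 CPM. It rose by 0.55 (SE 0.19, adjusted p = 0.0446), and without control replicate 5 the difference was 0.44 (adjusted p = 0.136). The Cdk7 call was lost in 7 of 12 such fits, those without control replicate 1, 2 or 5 or folpet replicate 1, 2, 3 or 5. It was also lost without the 7 libraries (0.55, adjusted p = 0.0819) and with DESeq2 (0.47, adjusted p = 0.0623). The members' median with folpet at 16000 ppm was -0.14, against -0.05 over all probes.

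**Figure D4:**
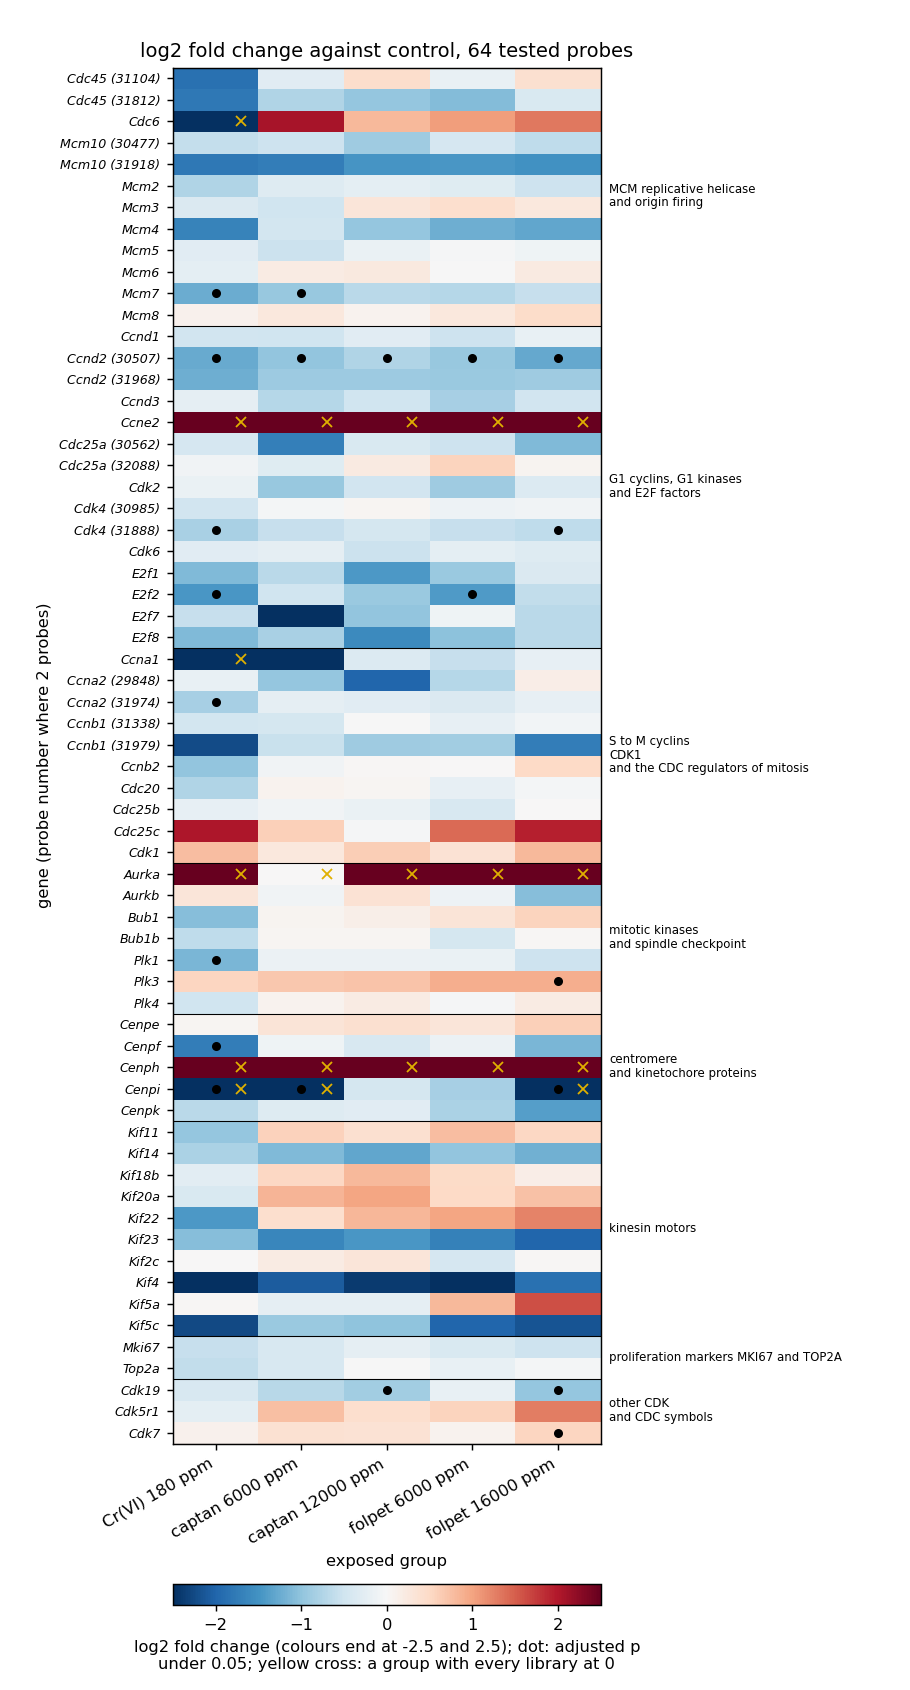
Log2 fold change against control (colour, ending at -2.5 and 2.5) for the 64 tested probes (rows, by role) in the 5 exposed groups (columns), with a dot at an adjusted p under 0.05 and a yellow cross where every library of a compared group is at 0. The Cr(VI) column holds 8 dots, all on negative values, the row of the first Ccnd2 probe holds one in each of the 5 columns, and the deep colours of Ccne2, Cenph, Aurka and Cenpi belong to crossed or low probes whose fold has no fixed size.

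Away from these calls edgeR called no member in the fungicide groups among the kinesins, the S to M cyclins, Plk1, Mki67 or Top2a. Plk1 was at medians of 69.5 and 68.1 CPM with captan and 71.3 and 62.2 CPM with folpet at the lower and higher doses, against 84.9 CPM in controls. Ccna2 was at medians of 229, 237, 222 and 254 CPM in the same order, against 264 CPM, and Top2a at 140, 169, 151 and 162 CPM, against 166 CPM. The medians of Mki67 were 25.6, 22.6, 24.8 and 27.6 CPM, against 26.8 CPM. Kif23, a kinesin of cytokinesis, had negative values in every group, at -1.06 with Cr(VI), -1.63 and -1.45 with captan and -1.70 and -1.99 with folpet. Its controls ran from 7.58 to 79.3 CPM, and its smallest adjusted p, with folpet at 16000 ppm, was 0.0696, where DESeq2 called it (-2.10, adjusted p = 0.0241). Cyclin E2 (Ccne2) was at 0 in all 5 controls and above 0 in 20 of the 35 exposed libraries, up to 22.7 CPM, and did not pass in any comparison with control.

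**Figure D5:**
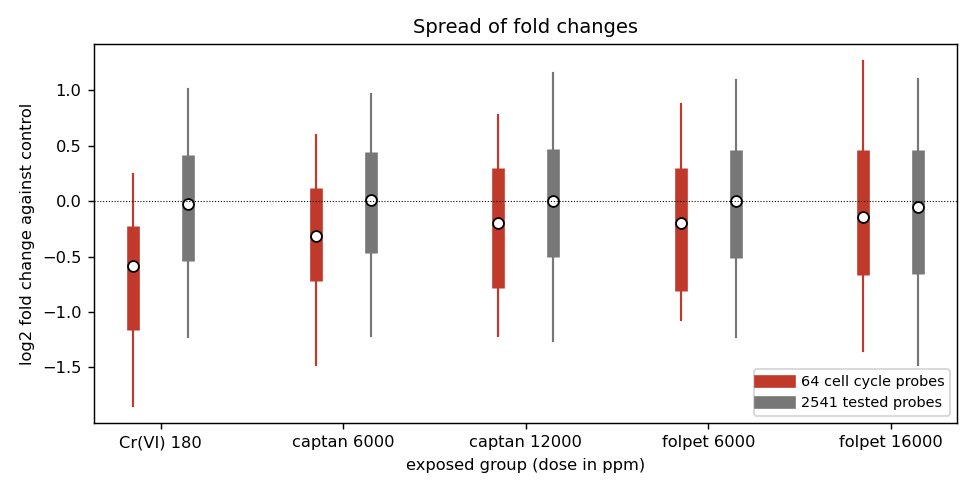
Log2 fold change against control (y axis) in each exposed group (x axis) for the 64 cell cycle probes and for all 2541 tested probes, as the median (white point), the middle 50% of probes (thick bar) and the range from the 10th to the 90th percentile (thin line). The members' median is -0.58 with Cr(VI) and between -0.31 and -0.14 in the fungicide groups, and the medians over all probes lie between -0.05 and 0.01.

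No member passed between captan at 12000 and 6000 ppm, where edgeR called 0% of all probes and DESeq2 called 1 member. In that comparison 3 of 64 members and 5.82% of all probes had an unadjusted p under 0.05 in edgeR's test. Between folpet at 16000 and 6000 ppm 1 member passed, with 1.73% of all probes called, 0.59% higher and 1.14% lower: Cdk19, at 66.1 to 102 CPM against 96.6 to 193 CPM, fell by 0.77 (SE 0.21, adjusted p = 0.035). The groups overlapped only between 96.6 and 102 CPM. The call was lost in 9 of the 14 fits that left out 1 library, where the difference ran from -0.85 to -0.68; it was kept without folpet 6000 ppm replicate 1, 4 or 5 or folpet 16000 ppm replicate 6 or 7.

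Captan and folpet share a trichloromethylthio group and differ in their ring system, a tetrahydrophthalimide in captan and an aromatic phthalimide in folpet. At the matched dose of 6000 ppm, no member differed in edgeR's test, with 0.157% of all probes called, and DESeq2 also called none. An unadjusted p under 0.05 in edgeR's test was found for 6 of 64 members and for 5.12% of all probes. The 95% intervals of the log2 difference, captan minus folpet, were -0.47 to 0.38 for Ccnd2, -0.72 to 0.27 for Mcm7, -0.24 to 0.52 for Ccna2, -0.34 to 0.35 for Cdk4, -0.62 to 0.18 for Top2a and -1.04 to 1.04 for Mki67. Differences of up to those sizes are therefore not shut out by these data. The smallest adjusted p outside probes at 0 was that of Cdc25a, a phosphatase of the G1 to S step, at 31.2 ± 18.9 CPM with captan and 57.5 ± 20.6 CPM with folpet (SD, n = 7 each, adjusted p = 0.538 by edgeR); its second probe had a log2 difference of -1.19 (SE 0.84). At the higher doses, 12000 ppm of captan and 16000 ppm of folpet, the doses differ and no comparison was made.

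Cr(VI) was set beside the higher fungicide doses through the Cr(VI) libraries themselves. Against captan at 12000 ppm 1 member was called, with 4.64% of all probes called, 1.5% higher and 3.15% lower: Plk1, at a median of 31.8 CPM against 68.1 CPM, was lower by a log2 difference of -0.99 (SE 0.28, adjusted p = 0.0244). Cenpf (11.2 against 28.3 CPM at the median, adjusted p = 0.054) and Top2a (107 against 169 CPM, adjusted p = 0.057) did not pass. Against folpet at 16000 ppm 1 member was called, with 7.32% of all probes called, 1.97% higher and 5.35% lower: Ccna2, at a median of 162 CPM against 254 CPM, with a log2 difference of -0.63 (SE 0.19, adjusted p = 0.0265). Bub1, singled out after its values were seen, did not pass (adjusted p = 0.0984). Its Cr(VI) libraries, at 0.604 to 19.5 CPM, all lay below the folpet libraries, at 20.4 to 63.8 CPM. Only 1 of the 64 members was separated in this way, and the share over all probes was not computed. The members' medians were -0.46 and -0.38, against -0.06 and 0.01 over all probes. Both calls were lost without the 7 libraries over 50% acinar counts (Plk1 at -0.52, Ccna2 at -0.78). Each was also lost in 5 of 14 fits that left out 1 library, without Cr(VI) replicate 3, 6 or 7 for both, without captan replicate 6 or 7 for Plk1 and without folpet replicate 2 or 4 for Ccna2.

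Of 26 probes of further replication genes, 2 were called lower after Cr(VI), where 5.94% of all probes were called and 2.99% lower, 21 had negative values and the median was -0.33. They were Rrm1, the large subunit of ribonucleotide reductase, at -0.56 (SE 0.18, adjusted p = 0.0454), and Rnaseh2a, which removes RNA from DNA, at -0.78 (SE 0.19, adjusted p = 0.00633). Rnaseh2a was also lower with captan at 12000 ppm (-0.62) and folpet at 6000 ppm (-0.68). No other probe of this list was called against control after Cr(VI), with captan or with folpet at 6000 ppm. Of 33 probes of further mitosis genes 2 were called lower after Cr(VI), the kinase Melk (-0.92, adjusted p = 0.0371) and the histone variant H2AFX (-0.74, adjusted p = 0.0494), and none in the fungicide groups.

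Of 20 probes of cell cycle inhibitors and regulators none was called after Cr(VI). With captan at 6000 ppm the retinoblastoma gene Rb1 was higher (0.88) and the growth arrest gene Gadd45g lower (-1.51). With captan at 12000 ppm Cdkn1b, the inhibitor p27, was lower (-0.68). With folpet at 6000 ppm Cdkn1a, the inhibitor p21, and Btg2, both targets of p53, were higher (0.75 and 0.80). With folpet at 16000 ppm Cdkn1a (0.57) and Rb1 (1.03) were higher and Cdkn1b was lower (-0.57).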

How the data were processed

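TempO-Seq libraries of 40 duodenum sections in 6 groups were measured. The deposited values are raw counts for each probe, in whole numbers. Per the submitters' processing notes the build was mm9 and the tools were Bowtie, with no version, and bcl2fastq 2.17.1.14. No source used here gives the probes' positions. Column names match the labels' titles, exposures come from the labels, and replicates were numbered by accession as names alone. Members and lists were chosen with earlier results of these data known. Counts were fitted with edgeR 4.0.16 (R 4.3.3): filterByExpr (minimum count 10, minimum total 15), TMM, robust quasi-likelihood fit with 1 mean per group over all 40 libraries (34 residual degrees of freedom), 2-sided tests, Benjamini-Hochberg over 2541 probes. The fit was run on counts simulated from its own estimates of spread. That simulation held no shift in acinar share and no outlying library, so it cannot speak to those limits. CPM uses the same scaling. With 2 probes per gene, the one with more counts is described and the other given beside it. Named in full are the 5 markers, every called member, and the member with the highest mean CPM; other members appear as examples of their role group, and some (Ccnd1, Ccnd3, Cdc20, Mcm2, Cdk1, Cenpe, Bub1, Kif23, Ccne2, Cdc25a) were singled out after their values were seen. Against this rule, probes with a compared group entirely at 0, apart from Ccne2, were left out as examples, and the other CDK and CDC symbols have no uncalled example, Cdk5r1 having been dropped after its values were seen. Intervals are 95% intervals of the fit. Alternatives were DESeq2 1.42.0, other scalings, filters and sample sets, summed probes and leaving out each library. One result of the list of further replication genes, in folpet at 16000 ppm, is not reported here.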

Additional observations from a re-analysis of the deposited data

Results flagged for a closer look

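The rule for a library far from the others flags about 1 in 20 groups by chance only where values are normally distributed. That was not checked for these CPM values, many of them at 0, so the number of flags has no known expected value. Among the named members and their summed level, 81 groups of values were checked, and 9 stood out. Of these, 2 were in control replicate 5, whose Mcm7 level of 384 CPM was far above the next control at 161 CPM and whose summed member level of 4153 CPM was above the next at 3215 CPM. Control replicate 2 was the highest for E2f2, at 137 CPM against 58.7 CPM, and for Cenpi, at 20.3 CPM against 0 CPM. After Cr(VI), Ccna2 was lowest in replicate 6, at 75.2 CPM against 152 CPM in the nearest library. With captan at 6000 ppm, Mcm7 was lowest in replicate 3 (40.3 CPM, next 94.3 CPM) and Cenpf highest in replicate 6 (71.5 CPM, next 37.4 CPM). With captan at 12000 ppm, Cdk4 was highest in replicate 1 (448 CPM, next 316 CPM) and Cdk19 highest in replicate 4 (139 CPM, next 94.7 CPM).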

How the results depend on the processing

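No paired analysis was possible because the labels carry no replicate numbers. Each of the 24 calls of a member kept its direction in every alternative that gave a nonzero difference. Of these calls, 15 were kept with the acinar share as covariate, 21 of 22 with DESeq2, 21 with DESeq2 size factors in edgeR, 22 with no filter on low counts, 24 with the probes of a gene summed, 8 of 21 when the fit held only the 2 groups compared, 2 with library totals alone and 5 with the libraries over 50% acinar left out. Library totals shifted the median of all probes to -0.30 with Cr(VI), 0.33 and 0.44 with captan, 0.28 and -0.05 with folpet, and -0.78 for Cr(VI) against captan at 12000 ppm.

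The number of called members with library totals alone was 1 for Cr(VI) against control, 0 for the other 4 comparisons with control, for the folpet step and for Cr(VI) against folpet, and 16 for Cr(VI) against captan. When the fit held only the groups compared it was 1 for Cr(VI), 1 and 0 for captan, 1 and 3 for folpet, 0 for Cr(VI) against captan and 2 against folpet. With the 7 libraries of over 50% acinar counts left out it was 0 for Cr(VI), 0 and 0 for captan, 1 and 3 for folpet, and 0 for Cr(VI) against captan and against folpet. With the acinar covariate it was 1 and 0 for captan, 1 for folpet at 6000 ppm, 0 for Cr(VI) against captan and 2 against folpet. DESeq2 size factors gave 5 for captan at 6000 ppm, and summed probes 2 for Cr(VI) against captan. DESeq2 gave 5 for folpet at 6000 ppm, 1 for the captan step, 4 for Cr(VI) against captan and 3 against folpet. Leaving out 1 library gave 6 to 10 for Cr(VI), 1 to 5 and 0 to 2 for captan, 1 to 3 and 3 to 6 for folpet, 0 to 1 for the folpet step, 0 to 4 for Cr(VI) against captan and 0 to 3 against folpet, and 0 throughout for the captan step and for captan against folpet. The cause of these shifts was not tested. The share of all probes called in each setting is not given here. The counts therefore do not show whether members moved more than other probes.

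Differences that did not pass changed sign for Cdk4 with captan at 12000 ppm (0.081 with library totals), for Cdk19 with folpet at 6000 ppm (0.17 with library totals, 0.053 without the libraries over 50% acinar, and from -0.29 to 0.031, the latter without control replicate 5, when 1 library was left out) and for the second Cdk4 probe with folpet at 16000 ppm (0.13 without the libraries over 50% acinar, and from -0.15 to 0.076, the latter again without control replicate 5). Of all values 28.5% are 0; the shallowest library (1763440 counts) had 2145 probes above 0 and the deepest (7904819 counts) 1959.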
